A study of Mus musculus with 5 samples.

Results

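The 8 genes described here are listed as markers of neuron subtypes of the central amygdala (CeA). They are Prkcd, Calcrl, Crh, Nts, Tac1, Tac2, Cartpt and Dkk3. They were taken by name from a table of 15093 genes, and all 8 were found in it and passed the filter on low values (a mean of at least 1). The material was ribosome-bound RNA of Drd2-TRAP mice, in which Cre driven by a Drd2 transgene turns on an EGFP-tagged ribosomal protein L10a, so that RNA on the tagged ribosomes of Drd2-lineage cells can be pulled down with antibodies to GFP. All libraries, the controls included, came from this line, and each was made from bilateral CeA punches pooled from 3 adult animals. There were 3 libraries labelled fear conditioning (replicates 2, 3 and 4) and 2 labelled home cage (replicates 6 and 7, here called control), with brains taken 2 h after the session. The study's results describe tone exposure without shock for the controls and collection after conditioning, its methods abbreviate the control group as HC, and the labels give the home cage and collection after extinction, so the treatment of the controls is not settled here. The libraries are separate pools, and p-values measure the spread between pools. In fits with 1 control left, only the spread between fear conditioned pools enters.

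The CeA is built almost wholly of GABAergic neurons, which are told apart by the peptides and signalling proteins they make. Prkcd (protein kinase C delta) marks neurons of its lateral and capsular divisions, many of which also carry the receptor for calcitonin gene-related peptide, whose core subunit is Calcrl. Crh, Nts, Tac1, Tac2 and Cartpt encode secreted peptides or their precursors (corticotropin-releasing hormone, neurotensin, substance P and neurokinin A, neurokinin B, and the CART peptide), and several of them can be made by the same cell. Dkk3 encodes a secreted glycoprotein of the dickkopf family. The study's staining showed it in pyramidal neurons of the basolateral amygdala, and the study names no CeA subtype for it. In bulk ribosome-bound RNA, fewer cells of a subtype and less RNA per cell cannot be told apart.

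Reads on genes, recovered from the deposited values, numbered between 19605318 and 27937520 per library, at which 3 reads correspond to between 0.10 and 0.158 counts per 1000000 (CPM). The libraries were uneven. Pearson's r across genes, which are not independent replicates, was at least 0.979 for pairs of fear conditioned libraries and 0.787 for the control pair. Genes listed at 0 numbered between 159 and 349 in the fear conditioned libraries, 976 in control 6 and 2681 in control 7. Of the 3118 genes with a mean between 10 and 30 CPM in the other 4 libraries, 163 (5.23%) were at 0 in control 7 and 25.1% were at least 5-fold below that mean, and so each result below is given with its value in each control library. A floor of 3 reads allows for counting error only, because reads copied by PCR are not separate molecules. Groups were compared with limma on log2(value + 1), a scale on which the change of low genes is understated.

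Promoter sequences are shown for Tac1, the marker whose groups lay farthest apart relative to their error, and for Tac2 and Cartpt, which varied together across libraries. They run from 250 bases before to 50 bases after the RefSeq start on GRCm38.p6, 5′ to 3′ on the strand of the gene. Capitals mark the cAMP response element (CRE) TGACGTCA or its shorter core TGACG on either strand, where CGTCA is the core read from the other strand.
Tac1 (chr6:7554811-7555110, plus strand): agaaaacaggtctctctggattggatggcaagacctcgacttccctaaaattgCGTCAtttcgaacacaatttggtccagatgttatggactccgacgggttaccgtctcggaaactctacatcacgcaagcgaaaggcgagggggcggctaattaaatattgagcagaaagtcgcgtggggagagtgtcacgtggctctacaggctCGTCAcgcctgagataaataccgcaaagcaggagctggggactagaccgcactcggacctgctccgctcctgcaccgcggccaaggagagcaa
Tac2 (chr10:127724228-127724527, plus strand): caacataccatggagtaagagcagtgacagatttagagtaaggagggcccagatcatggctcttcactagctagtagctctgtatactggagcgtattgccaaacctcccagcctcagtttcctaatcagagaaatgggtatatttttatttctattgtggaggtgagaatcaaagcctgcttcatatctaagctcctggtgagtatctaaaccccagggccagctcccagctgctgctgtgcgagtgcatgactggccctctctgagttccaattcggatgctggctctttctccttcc
Cartpt (chr13:99900634-99900933, minus strand): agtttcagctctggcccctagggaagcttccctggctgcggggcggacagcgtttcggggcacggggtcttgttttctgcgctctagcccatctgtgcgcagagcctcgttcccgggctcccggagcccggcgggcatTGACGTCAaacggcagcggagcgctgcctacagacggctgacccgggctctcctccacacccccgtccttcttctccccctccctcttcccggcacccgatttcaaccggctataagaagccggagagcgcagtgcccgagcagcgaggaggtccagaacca
Promoters of 6 of the 8 markers were matched. The Tac1 promoter held 2 cores, with first bases at -197 and -43 from the start, the Nts promoter (chr10:102490369-102490668, minus strand) held 1 at -166, and the Cartpt promoter held the full element at -112, within which 2 cores overlap. No match was found in the windows of Tac2, Calcrl or either start of Prkcd. The core occurred in 20.8% of 32851 promoters of this length and the full element in 1.79%, and a match is only a description of these letters.

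Per length, Tac1 and Nts held the top 2 places among the markers in every library, and Prkcd and Calcrl the last 2 in all but control 7, where they ranked 4 and 5, above Cartpt, Crh and Tac2. On the scale of CPM per 1000 bases of deposited gene length, the mean level over the 5 libraries was 94.8 ± 64.1 (SD, n = 5) for Tac1 and 69.2 ± 34.0 for Nts. Tac2 followed with 19.7 ± 18.2, Dkk3 with 15.2 ± 7.97, Crh with 13.1 ± 10.7 and Cartpt with 11.9 ± 9.41. Prkcd had 3.19 ± 2.30 and Calcrl 1.12 ± 0.865. The mean level of Drd2, whose transgene drives Cre in this line, was 129.6 on the same scale. It ranged from 50.5 in control 6, close to Nts (50.2) and Tac1 (49.6) there, to 218 in fear conditioned replicate 4. In control 7 Drd2 (103.1) lay below Nts (125.9).

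Most neighbours in this order did not differ beyond their spread. Of the 7 neighbouring pairs, only Prkcd over Calcrl had a mean log2 ratio larger than its SD over libraries (1.55 ± 0.68, with Prkcd above Calcrl in 5 of 5 libraries). Nts was also above Tac2 in 5 of 5 libraries, but by very unequal amounts. Tac1 was above Nts in the 3 fear conditioned libraries and below it in both controls.

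**Figure D1:**
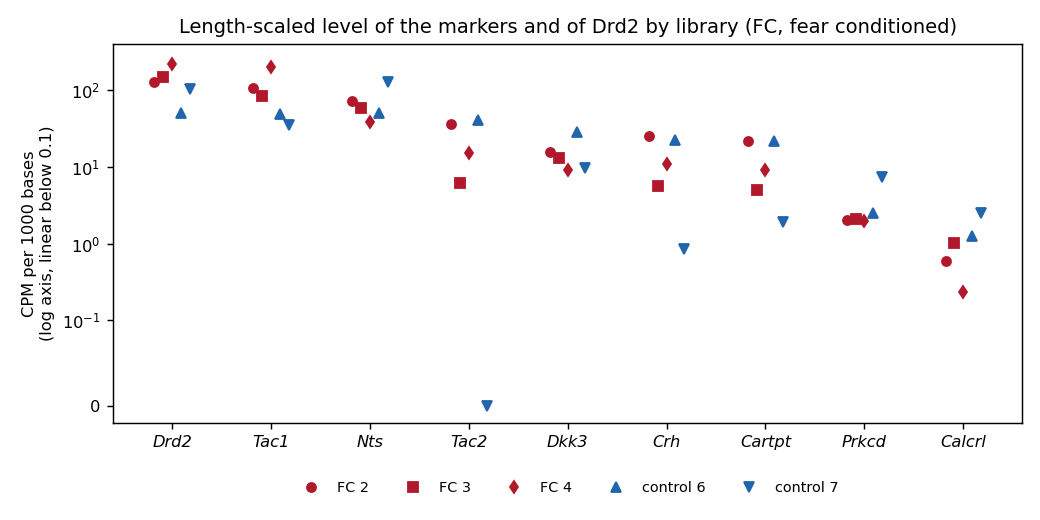
Level of each marker and of Drd2 in each library, in CPM per 1000 bases of deposited gene length (log axis, linear below 0.1), with fear conditioned libraries in red and controls in blue. Tac1 and Nts sit highest among the markers in each library and Calcrl lowest in all but control 7, where Cartpt, Crh and Tac2 (at 0) lie below it.

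The comparison of fear conditioned with control libraries asks whether the subtype makeup of the RNA on tagged ribosomes differed between the groups. Tac1 was higher in all 3 fear conditioned libraries than in both controls, and Prkcd and Calcrl were lower, whereas the other 5 markers overlapped between the groups. None of the 8 markers passed an adjusted p of 0.05 in limma, and neither did any of the 13560 genes tested (0%), of which the lowest adjusted p was 0.197. Tac1 was the 1 marker of 8 with an unadjusted p under 0.05, beside 16.8% of all genes tested (9.49% higher and 7.32% lower). The groups did not overlap for 1 marker in the higher direction, where 20.2% of all genes did the same, and for 2 in the lower direction, where 16.1% of all genes did (36.4% in either direction). The median log2 fold change of the markers was -0.01 and that of all genes tested 0.08, and the median of the markers was 1.05 without control 6 and -0.97 without control 7.

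**Figure D2:**
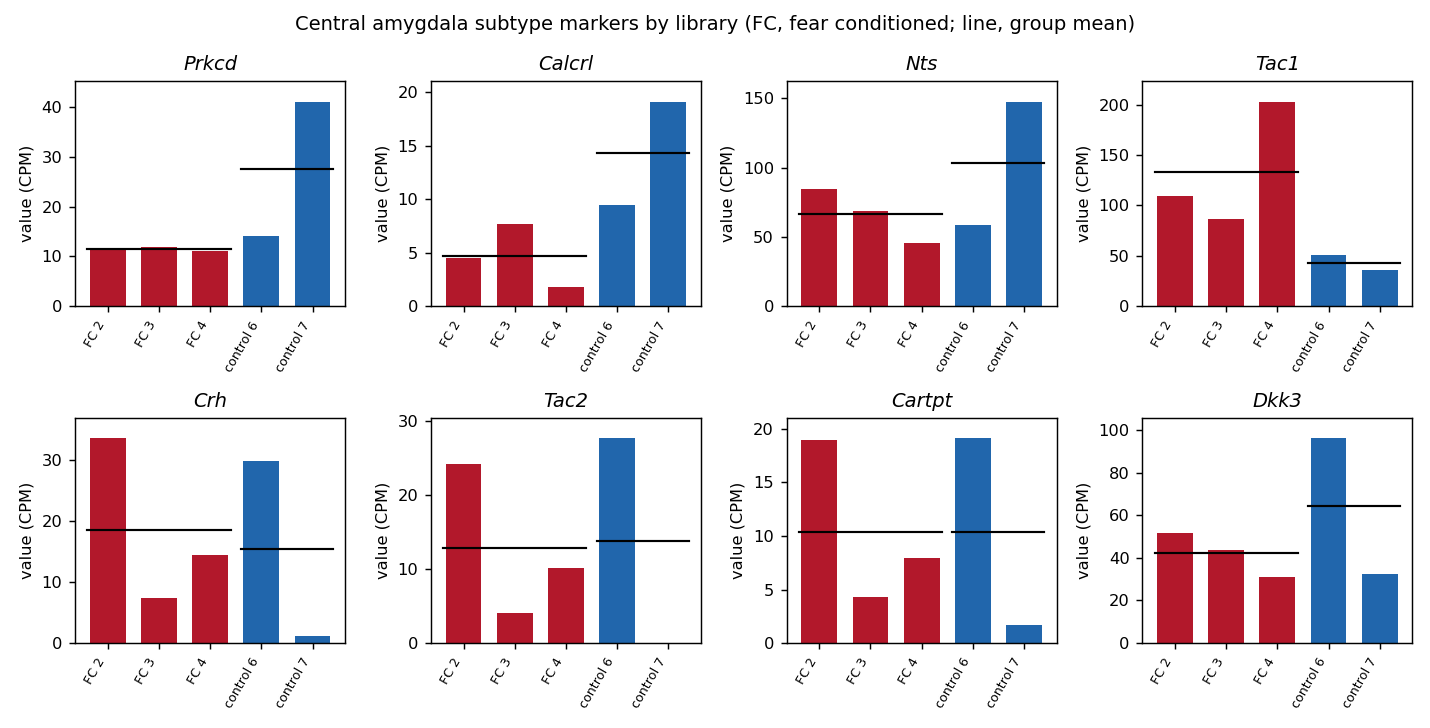
CPM of each marker in each library as bars from 0, with the mean of each group as a line, fear conditioned (FC) in red and control in blue. Tac1 is higher in every FC library than in both controls, Prkcd and Calcrl are lower, and Crh, Tac2 and Cartpt share one shape with their lowest bar in control 7.

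Prkcd (ENSMUSG00000021948) encodes a kinase activated by diacylglycerol. It measured 11.5, 11.9 and 11.2 CPM in fear conditioned replicates 2, 3 and 4, and 14.2 and 41.1 CPM in controls 6 and 7. The fear conditioned libraries lay close together just under control 6, and control 7 stood far above the rest. Group means were 11.5 ± 0.371 CPM (SD, n = 3) and 27.6 ± 19.0 CPM (SD, n = 2), with a limma log2 fold change of -1.01 (SE, the standard error, 0.56, adjusted p = 0.403). The two-sided exact permutation test gave p = 0.1, the smallest that 3 libraries against 2 allow. With control 7 left out the value was -0.28, and with control 6 left out it was -1.75, so the size of the difference rested on which control was used.

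Calcrl (ENSMUSG00000059588), a G protein-coupled receptor that binds CGRP when joined to Ramp1 and adrenomedullin when joined to Ramp2 or Ramp3, measured 4.55, 7.70 and 1.79 CPM in the fear conditioned libraries against 9.52 and 19.1 CPM in the controls. Both controls were above all 3 fear conditioned libraries, and the level in replicate 4 was lowest of all. Means were 4.68 ± 2.96 CPM (SD, n = 3) and 14.3 ± 6.81 CPM (SD, n = 2), a limma log2 fold change of -1.51 (SE 0.71, adjusted p = 0.343). The exact permutation p was 0.2, above the smallest possible. The difference kept its direction without control 6 (-1.97) and without control 7 (-1.04). Calcrl is also made by endothelial cells, and the summed level of 9 endothelial markers was 51.5, 23.5 and 46.8 CPM after fear conditioning against 55.2 and 266 CPM in the controls. That sum was highest in control 7, as Calcrl was, mainly through Ly6c1 (150.5 CPM there), Slco1c1 (51.0 CPM) and Kdr (31.3 CPM), whereas the tight junction gene Cldn5 was at 0.053 CPM and Tek at 0 in control 7. The part of such cells in the Calcrl difference was not tested.

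Nts (ENSMUSG00000019890) encodes the precursor of neurotensin and neuromedin N. Its level was 84.5, 69.0 and 45.3 CPM after fear conditioning, and 58.8 and 147.6 CPM in the controls. Control 7 was highest, but control 6 fell within the range of the fear conditioned libraries, so the groups overlapped. Means were 66.3 ± 19.8 CPM (SD, n = 3) and 103 ± 62.8 CPM (SD, n = 2), and the limma log2 fold change was -0.53 (SE 0.47, adjusted p = 0.584). Its direction depended on control 7, without which the value was 0.12.

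Tac1 (ENSMUSG00000061762), the precursor gene of substance P and neurokinin A, measured 109.7, 87.0 and 203 CPM in the fear conditioned libraries against 50.9 and 36.0 CPM in the controls. All 3 fear conditioned libraries were above both controls, with replicate 4 the highest. Means were 133 ± 61.5 CPM (SD, n = 3) and 43.4 ± 10.6 CPM (SD, n = 2). On the log2(value + 1) scale Tac1 was 1.52 higher (SE 0.41, limma unadjusted p = 0.00931, adjusted p = 0.206), and the exact permutation p was 0.1. By DESeq2 on recovered reads the log2 fold change was 1.60 at an adjusted p of 0.0185, the only call among the 8 markers by that tool, which called 7.96% of all genes (3.95% higher and 4.01% lower). The quasi-likelihood test of edgeR (1.63, adjusted p = 0.173) and limma voom (adjusted p = 0.186) did not call it. Leaving out each library in turn gave values between 1.17 and 1.78, all in the same direction.

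Tac1 is also a marker of striatal direct pathway neurons, which lie next to the CeA. Of 16 other striatal marker genes tested, 9 were higher at an unadjusted p under 0.05 and 0 were lower (9.49% and 7.32% of all genes). The groups did not overlap in the higher direction for 10 (20.2% of all genes), and the median log2 fold change was 1.03. After adjustment 0 were called by limma and 4 were called higher by DESeq2 (3.95% of all genes). The list holds Drd2 and Adora2a, which the study found in nearly all Drd2 cells of the CeA, so it does not single out direct pathway neurons. Drd1a, the direct pathway receptor gene in the list, measured 33.9, 42.8 and 83.5 CPM after fear conditioning against 15.2 and 27.6 CPM in the controls. The summed level of the list was 9290, 14256 and 14252 CPM after fear conditioning against 4207 and 8595 CPM in the controls. This list was higher along with Tac1, and its part in the Tac1 difference was not tested.

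Crh (ENSMUSG00000049796) encodes corticotropin-releasing hormone. It measured 33.7, 7.33 and 14.5 CPM in fear conditioned replicates 2, 3 and 4, and 29.9 and 1.11 CPM in controls 6 and 7. The control libraries differed 27.0-fold from each other, more than any pair of fear conditioned libraries, and the groups overlapped. Means were 18.5 ± 13.6 CPM (SD, n = 3) and 15.5 ± 20.4 CPM (SD, n = 2), with a limma log2 fold change of 1.03 (SE 1.22, adjusted p = 0.688). The sign turned without control 7 (-0.91).

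Tac2 (ENSMUSG00000025400), the neurokinin B precursor gene, had 511, 99 and 204 reads in the libraries of fear conditioned mice against 830 and 0 reads in controls 6 and 7. In CPM these are 24.2, 4.12 and 10.1 after fear conditioning, and 27.7 and 0 in the controls. The highest and the lowest library were thus both controls, and control 6 was at least 175-fold above the floor of 3 reads in control 7. The limma log2 fold change was 1.07 (SE 1.47, adjusted p = 0.733), a value that depends on the pseudocount given the 0. With a pseudocount of 0.1 the log2 fold change was 2.61. It was -1.35 without control 7. The tests on recovered reads differed widely, with values just under 0 by edgeR (-0.062) and DESeq2 (-0.10) and 3.26 by limma voom.

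Cartpt (ENSMUSG00000021647), the CART peptide gene, measured 19.0, 4.29 and 7.94 CPM in the fear conditioned libraries against 19.1 and 1.69 CPM in the controls. Replicate 2 and control 6 were high, the other 3 libraries were low, and the group means were nearly equal, 10.4 ± 7.64 CPM (SD, n = 3) and 10.4 ± 12.3 CPM (SD, n = 2). The limma log2 fold change was 0.42 (SE 1.03, adjusted p = 0.855), and it was -1.04 without control 7. Crh and Cartpt are also strong in hypothalamic neurons, and the summed level of 4 hypothalamic markers was 8.34, 10.9 and 6.26 CPM after fear conditioning against 38.6 and 8.38 CPM in the controls. That sum was highest in control 6, mainly through Trh (28.4 CPM there), whereas Avp was highest in control 7 (8.23 CPM), and the part of such cells in the Crh and Cartpt values was not tested.

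Dkk3 (ENSMUSG00000030772) measured 51.9, 43.6 and 30.9 CPM after fear conditioning, and 96.2 and 32.4 CPM in the controls. Control 6 was above all other libraries, whereas control 7 lay near the lowest fear conditioned library. Means were 42.2 ± 10.6 CPM (SD, n = 3) and 64.3 ± 45.1 CPM (SD, n = 2), with a limma log2 fold change of -0.43 (SE 0.51, adjusted p = 0.687). The value was -1.20 without control 7 and 0.34 without control 6. Dkk3 is made by pallial excitatory neurons, and the study stained it in pyramidal neurons of the basolateral amygdala. The summed level of 11 pallial excitatory markers was 232, 224 and 55.6 CPM after fear conditioning against 447 and 317 CPM in the controls. Both were highest in control 6 and lowest in replicate 4, and the part of such cells in the Dkk3 difference was not tested.

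**Figure D3:**
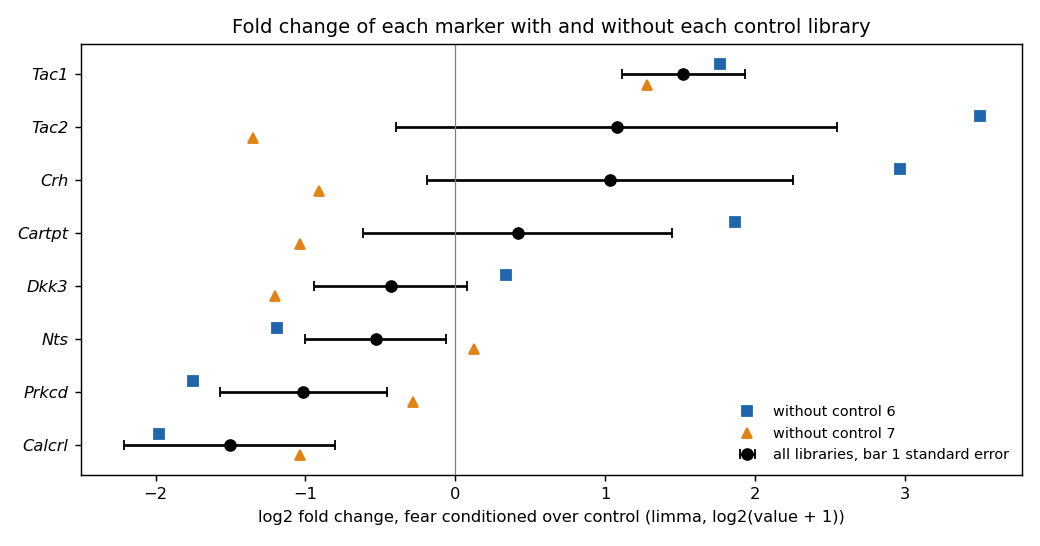
Limma log2 fold change of each marker on log2(value + 1), fear conditioned over control, with all 5 libraries (black, bar 1 standard error), without control 6 (blue squares) and without control 7 (orange triangles). Tac1, Prkcd and Calcrl stay on one side of 0, and the other 5 markers cross it when a control library is left out.

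The spread within the control group was larger than the difference between groups for most markers. In 6 of 8 the log2 distance between the 2 controls exceeded the group difference (70.8% of all genes tested), and in 6 of 8 it exceeded the range of the fear conditioned libraries (75.7% of all genes). Control 7 held the highest value of 3 markers (Prkcd, Calcrl and Nts) and the lowest of 4 (Tac1, Crh, Tac2 and Cartpt), beside 75.6% of all genes with an extreme value there. The markers thus shared this feature with the table as a whole. With control 7 as the lone control, limma called 4 markers higher (Tac1, Crh, Tac2 and Cartpt) and 3 lower (Prkcd, Nts and Calcrl) along with 4808 higher and 3217 lower genes, under the assumption that a lone library varies like the other group. With control 6 as the lone control, only Dkk3 among the markers was called (-1.20, limma adjusted p = 0.0258), lower, along with 1596 higher and 2126 lower genes.

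Crh, Tac2 and Cartpt followed one another across the libraries. Each was high in fear conditioned replicate 2 and control 6, intermediate in replicate 4, low in replicate 3 and lowest in control 7. As a measure of likeness, the root mean square distance between log2(value + 1) profiles over the 5 libraries, each centred on its own mean, was 0.32 for Crh and Tac2, against a median of 1.31 over the 28 pairs of markers. Among 9275 genes with a mean of at least 10 CPM, Tac2 was the nearest to Crh and Crh the nearest to Tac2, with medians over all genes of 1.51 from Crh and 1.80 from Tac2. Cartpt was 0.43 from Crh and 0.71 from Tac2. These are descriptions over 5 libraries that share depth and handling, and they carry no test.

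The likeness did not rest on control 7 alone. Over the other 4 libraries the distance was 0.08 for Crh and Cartpt and 0.20 for Tac2 and Cartpt, in each case with Cartpt as the nearest of all genes compared, and 0.21 for Crh and Tac2, where Tac2 ranked 3 from Crh. In CPM, Crh over Cartpt was 1.78, 1.71 and 1.83 in the fear conditioned libraries against 1.56 in control 6, although the level of Crh itself ranged from 7.33 to 33.7 CPM over these 4. In control 7 the ratio was 0.656. Crh over Tac2 was 1.39, 1.78 and 1.43 in the fear conditioned libraries against 1.08 in control 6, and the sum of the 3 genes was 76.9, 15.7, 32.6, 76.8 and 2.79 CPM in the order of the libraries. Replicate 2 and control 6 thus had nearly the same sum, and the fear conditioned libraries spread over most of its range. In control 7 Crh was 19.3-fold and Cartpt 7.46-fold below the mean of the other libraries and Tac2 was at 0, in the library where 25.1% of genes of similar level were at least 5-fold low.

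**Figure D4:**
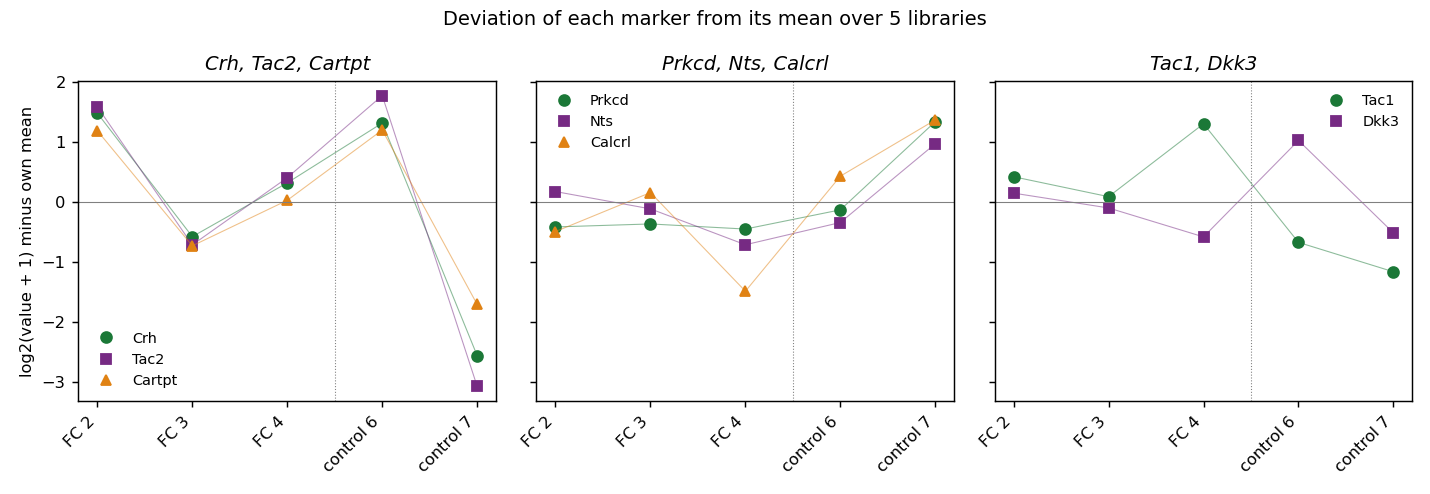
Deviation of log2(value + 1) from each marker's own mean over the 5 libraries, in 3 panels, with the dotted line between fear conditioned (FC) and control libraries. Crh, Tac2 and Cartpt trace one shape, Prkcd, Nts and Calcrl peak in control 7, and Tac1 and Dkk3 follow neither.

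Among the markers, Prkcd, Nts and Calcrl were also close over 5 libraries. Distances were 0.36 for Prkcd and Nts, 0.58 for Prkcd and Calcrl and 0.61 for Nts and Calcrl. Among all 9275 genes compared they were not near neighbours. Nts ranked 831 from Prkcd, and Calcrl ranked 2666 from Prkcd and 3543 from Nts. All 3 markers peaked in control 7, and what likeness they had rested on it. Without that library Prkcd and Nts were 0.35 apart, at rank 5481 among the genes compared with Prkcd. Prkcd and Calcrl were then 0.65 apart, at rank 8473. The pair farthest apart was Tac2 and Calcrl, at 2.46.

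Outside the markers, the genes nearest to Prkcd were Gm10419 (0.05), B630005N14Rik (0.06) and Fbxl4 (0.07), and those nearest to Nts were Hyls1, Hddc2 and Mrpl22 (each 0.13). Nearest to Calcrl were Nptx1 (0.19), Sidt1 (0.20) and Otof (0.20), and nearest to Dkk3 were Dpysl4 (0.10), Cnrip1 (0.11) and Tub (0.12). Tac1 was nearest to S100a10 (0.17), Fam134c (0.20) and Agpat1 (0.25). For the peptide trio the nearest genes were farther away: Slc39a12 (0.32) and Laptm5 (0.41) followed Tac2 from Crh, Gusb (0.40) and Slc39a12 (0.44) followed Crh from Tac2, and Crh (0.43) and Vps13d (0.44) were among the 3 nearest to Cartpt.

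Relative to Drd2, 3 of 8 markers (Prkcd, Calcrl and Nts) were lower in fear conditioned libraries without overlap, beside 47% of all genes. Drd2 itself measured 326, 375 and 555 CPM in the fear conditioned libraries against 128 and 262 CPM in the controls (limma log2 fold change 1.15, standard error 0.38, adjusted p = 0.239). The log2 ratio of Prkcd to Drd2 was -5.03 ± 0.43 (SD, n = 3) after fear conditioning and -2.87 ± 0.32 (SD, n = 2) in controls, a difference of -2.16. The difference was -2.65 for Calcrl and -1.68 for Nts, and for these 3 markers the groups did not overlap in the lower direction, as was so for 47% of all genes on this scale. Differences for the other markers were 0.37 for Tac1, -0.12 for Crh, -0.07 for Tac2, -0.73 for Cartpt and -1.58 for Dkk3. The exact permutation p was 0.1 for Prkcd and Calcrl and between 0.2 and 1 for the rest, and the lowest value after adjustment over the 8 markers was 0.4.

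The direction of several ratios depended on the reference. Against the mean of Gad1 and Gad2, the enzymes that make GABA, Prkcd (-0.79) and Calcrl (-1.28) were again lower in all fear conditioned libraries than in both controls, where 11% of all genes were. Tac1 (1.75) was higher without overlap, as 27.1% of all genes were, and Nts (-0.30) overlapped. Against this reference Crh (1.26), Tac2 (1.30) and Cartpt (0.65) had positive differences, whereas against Drd2 theirs were at or below 0.

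**Figure D5:**
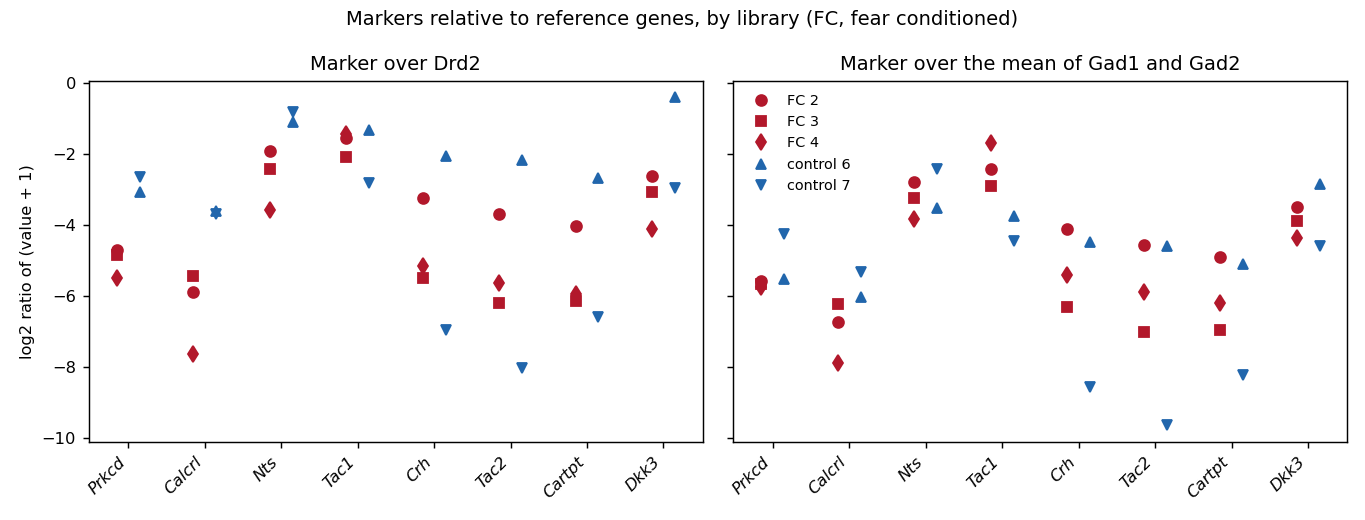
Log2 ratio of (value + 1) of each marker to that of Drd2 (left) and to the mean of Gad1 and Gad2 (right) in each library, fear conditioned (FC) in red and control in blue. Prkcd and Calcrl lie lower in FC than in control libraries in both panels, and Crh, Tac2 and Cartpt spread widest between the 2 controls.

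Receptors and partners of the marker peptides ranged widely in level. Of 22 such genes listed, 16 were in the table and 13 were tested. At an unadjusted p under 0.05, 1 was higher and 2 were lower (9.49% and 7.32% of all genes). The groups did not overlap for 1 in the higher and 5 in the lower direction (20.2% and 16.1% of all genes). After adjustment 0 were called by limma, and DESeq2 called 1 higher (3.95% of all genes). Ramp1, the CGRP partner of Calcrl, had the highest level of the list, with 403, 292 and 308 CPM in the fear conditioned libraries against 186 and 444 CPM in the controls. It overlapped between groups (log2 fold change 0.20), unlike Calcrl. Sort1, which sorts and binds neurotensin, measured 114, 196 and 180 CPM after fear conditioning and 231 and 308 CPM in the controls. Ntsr2, a neurotensin receptor found mainly in astrocytes, measured 71.8, 37.5 and 65.3 CPM after fear conditioning and 113 and 137 CPM in the controls (limma log2 fold change -1.14, unadjusted p = 0.0158, adjusted p = 0.223). Both neurotensin partners were thus higher in each control library. The summed level of 9 astrocyte markers was 535 to 731 CPM after fear conditioning and 1604 and 2424 CPM in the controls. That sum rested mainly on Slc1a2 (843 and 1905 CPM in controls 6 and 7). Of the 9 markers, 5 were higher in both controls without overlap, beside 16.1% of all genes. Aldh1l1 (1.21 CPM), Gjb6 (0.105 CPM) and S100b (19.6 CPM) were instead at their lowest in control 7. The part of such cells in the Ntsr2 difference was not tested.

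Among further receptors, chosen after their values were seen, Crhr1, the main CRH receptor of the brain, measured 20.8, 23.9 and 19.8 CPM in the fear conditioned libraries against 17.5 and 45.3 CPM in the controls (log2 fold change -0.38). Crhbp, which binds and retains CRH, measured 10.2, 8.66 and 3.13 CPM after fear conditioning and 23.5 and 13.8 CPM in the controls (-1.32), without overlap. Tacr1, the substance P receptor, measured 12.5, 10.1 and 20.2 CPM and 8.38 and 17.9 CPM (0.14), with overlap. Tacr3, the receptor that neurokinin B prefers, had 91, 83 and 91 reads after fear conditioning against 1 and 0 in the controls. Both controls were at or under 3 reads for 1.62% of the genes tested. Such genes, Tacr3 among them, passed the filter on the mean only through their fear conditioned libraries. The Tacr3 split is thus a description, and no test is drawn from it. The ligand Tac2 did not share this split, being high in control 6.

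The family of Prkcd showed no common direction. Of 8 other protein kinase C genes, 1 was higher and 1 lower at an unadjusted p under 0.05 (9.49% and 7.32% of all genes). The median log2 fold change was -0.16, and 0 were called by limma and 1 was called lower by DESeq2 (4.01% of all genes). The most abundant, Prkcb, measured 546, 1625 and 989 CPM in the fear conditioned libraries against 892 and 1324 CPM in the controls, so that the fear conditioned libraries spanned both. Of the dickkopf genes and their receptors, 5 were tested, 1 was higher and 0 were lower at an unadjusted p under 0.05, 0 were called by limma and 1 was called lower by DESeq2, and the median was 0.17. Of 17 genes that process or store neuropeptides, 0 were higher and 2 were lower at that p and 2 were called lower by DESeq2. Their median was -0.13, and 3 did not overlap in the higher and 2 in the lower direction (20.2% and 16.1% of all genes). For the dickkopf and processing genes too, the shares of all genes were 9.49% higher and 7.32% lower at that p, and 4.01% lower by DESeq2.

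Other markers of CeA subtypes differed in both directions. Of 12 tested, 3 were higher and 1 was lower at an unadjusted p under 0.05 (9.49% and 7.32% of all genes). Limma called 0 and DESeq2 called 1 higher (3.95% of all genes), and the median log2 fold change was -0.15. Penk, the enkephalin precursor gene of Drd2 neurons, measured 16076, 13565 and 14950 CPM after fear conditioning and 6098 and 8606 CPM in the controls, higher without overlap like Tac1. Sst, the somatostatin gene, measured 133, 65.5 and 72.0 CPM after fear conditioning and 146 and 280 CPM in the controls (limma log2 fold change -1.23, standard error 0.42, adjusted p = 0.246), lower without overlap like Prkcd and Calcrl. Of the 3 GABAergic identity genes, which every subtype shares, the median was -0.52, and it was 0.26 without control 7. The vesicular transporter gene Slc32a1 measured 27.7, 15.5 and 32.1 CPM after fear conditioning against 7.41 and 185 CPM in the controls, which lay on both sides of it. Gad1 was at 820, 902 and 921 CPM after fear conditioning and 734 and 968 CPM in the controls. Gad1 overlapped between groups, and Gad2 was higher in both controls (657 and 671 CPM) than after fear conditioning (435, 481 and 472 CPM).

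Genes of other cell types also differed between the libraries. The summed level of 10 choroid plexus markers was 59.4, 112 and 63.4 CPM after fear conditioning against 1038 and 1451 CPM in the controls. In the controls that sum was mainly Ttr (913 and 1320 CPM). After fear conditioning it was mainly Clic6 (50.9, 77.2 and 56.2 CPM), which overlapped between groups (51.1 and 64.2 CPM in the controls). Folr1 and Kcne2 were highest in control 6 and each at 0.053 CPM in control 7. Of the 9 choroid plexus markers tested, 5 were lower at an unadjusted p under 0.05. Of 9 astrocyte markers 5, of 8 oligodendrocyte markers 4 and of 8 microglial markers 1 were lower at that p, beside the same 7.32%. Their medians were -0.88, -0.88 and -0.04. The medians were 0.05 for 3 intercalated cell markers, 0.22 for 7 interneuron markers, -0.92 for 11 pallial excitatory markers, -0.13 for 3 hypothalamic markers and -1.12 for 8 endothelial markers, and 0 genes of any of these lists were called by limma. DESeq2 called 3 choroid plexus, 3 astrocyte, 3 oligodendrocyte, 1 pallial and 1 endothelial marker lower and 1 pallial marker higher. It called 4.01% of all genes lower and 3.95% higher. Leaving out 1 library moved the medians to between -0.52 and 0.53 for intercalated, -0.53 and 1.51 for interneuron, -1.43 and -0.28 for pallial and -1.02 and 1.84 for hypothalamic markers. Their part in the marker differences beyond the values given above was not tested.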

How the data were processed

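Ribosome-bound RNA from CeA punches of Drd2-TRAP mice was sequenced as paired-end reads. The values the authors deposited are a normalized signal, 1 per gene and library, scaled as counts per 1000000 (CPM) to an effective library size, beside a gene length. The submitters' processing notes name DESeq and the build mm8, and the aligner is not given in the sources used here. All values were whole multiples of 1 read within 0.01, so reads were recovered and used for the count tests, which are alternatives here. The libraries held 19605318 to 27937520 reads on genes, and whether strand was used in counting is not given.

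Groups were taken from the labels (3 fear conditioned, 2 control). The deposited signal was compared on the log2(value + 1) scale in limma 3.58.1, by lmFit and a trended eBayes, over the 13560 genes whose mean was 1 or more, with two-sided p-values adjusted by Benjamini-Hochberg. A call needed both an adjusted p under 0.05 and a log2 fold change beyond 0.5 either way. Single values were compared with an exact permutation test over all 10 arrangements of 3 against 2, with a smallest p of 0.1. Alternatives were a pseudocount of 0.1, no filter, a minimum of 1 in each library, quantile normalization, ratios to Gad1 and Gad2 (chosen after seeing the data), order without length, each library left out, and edgeR 4.0.16 (quasi-likelihood), DESeq2 1.42.0 and limma voom on recovered reads, with filterByExpr for edgeR and voom. On simulated counts for fear conditioned against control, 200 genes were shifted by 3 on the log2 scale. All libraries, the controls included, were drawn with the spread of the conditioned group. There limma recovered 195 among 13548 tested with 12 false calls, and edgeR 196 among 14806 with 12. Voom recovered 196 among 14806 with 14, and DESeq2 197 among 15093 with 43. The real control pair was less alike (Pearson's r 0.787), so this recovery does not carry over to the real comparison.

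Named genes are the 8 markers, Drd2 and up to 4 genes per list with the highest means. The 3 genes with a mean of at least 10 nearest to each marker in profile are also named. Further genes were named after their values were seen (Crhr1, Crhbp, Tacr1, Tacr3, Ly6c1, Slco1c1, Kdr, Cldn5, Tek, Trh, Avp, Drd1a, Adora2a, Aldh1l1, Gjb6, Folr1, Kcne2). Of the nearest genes, 1 is not reported here. The markers and lists were chosen with earlier results of these data known. Of the identifiers, 14622 were found in a table of names, 43 names were repeated and genes were joined by identifier, and 9 lengths were below 0. Tables and plots were made with Python 3.11.15 (pandas 2.3.3, numpy 2.4.6, matplotlib 3.10.9), and fits with R 4.3.3. Promoters came from a RefSeq table on GRCm38.p6, a build other than that of the reads, and no coordinate was taken from the deposited file.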

Additional observations from a re-analysis of the deposited data

How the results depend on the processing

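No paired analysis was possible because the groups share no replicate numbers. With 2 control libraries that differ widely, the data limit every comparison of the markers, and a marker that was not called is not shown to be unchanged. Tac1 passed the threshold with DESeq2 (1.60, adjusted p = 0.0185), which called 1 marker higher and 573 genes higher and 582 lower, against 0 each with limma, edgeR and voom (2280, 2404 and 2543 genes at an unadjusted p under 0.05). Tac2 turned negative with edgeR (-0.062) and DESeq2 (-0.10), whereas it was 3.26 with limma voom and 2.61 with a pseudocount of 0.1. Under quantile normalization 1 marker did not overlap between groups, against 3 in the main setting, where 36.4% of all genes did not overlap. The share of all genes was not counted under quantile normalization. The Drd2 ratio difference of Crh was 0.20 and that of Tac2 was 1.45 with a pseudocount of 0.1, and against Gad1 and Gad2 they were 1.26 and 1.30, with Cartpt at 0.65. Without division by length Dkk3 took place 3, Prkcd 4, Tac2 6 and Cartpt 7 in the order of levels.

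Leaving out each library in turn gave log2 fold changes of -1.75 to -0.28 for Prkcd, -1.97 to -1.04 for Calcrl, -1.19 to 0.12 for Nts, 1.17 to 1.78 for Tac1, -0.91 to 2.97 for Crh, -1.35 to 3.50 for Tac2, -1.04 to 1.87 for Cartpt and -1.20 to 0.34 for Dkk3. Ratio differences to Drd2 ranged from -2.39 to -1.92 for Prkcd, -3.10 to -1.99 for Calcrl, -2.04 to -1.21 for Nts, -0.38 to 1.13 for Tac1, -2.57 to 2.33 for Crh, -3.01 to 2.86 for Tac2, -2.70 to 1.23 for Cartpt and -2.86 to -0.30 for Dkk3. Markers called higher ranged from 0 to 4 and lower from 0 to 3, genes called higher from 0 to 4808 and lower from 0 to 3217, and markers without overlap from 3 to 7. The calls appeared when 1 control was left, apart from 1 gene called lower without fear conditioned replicate 3. Without fear conditioned replicate 2 Cartpt was at -0.10. The cause of these moves was not tested beyond the library left out.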
